A study of Homo sapiens with 6 samples.

Results

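Of the 37887 gene symbols counted in BT-549 cells, 9 form the NRF2 redox genes described here, chosen by symbol: NFE2L2, KEAP1, GCLC, GCLM, NQO1, HMOX1, TXNRD1, TXN and SRXN1. All 9 were in the count table and passed the filter on low counts. BT-549 is a cultured human line from a triple-negative breast cancer, which lacks hormone receptors and HER2 amplification. RNA from 3 control samples, which per the labels received 0.1% DMSO, was compared with RNA from 3 shIRF1 samples, which received 500 ng/ml doxycycline. The control titles speak of a control shRNA, but the series description gives DMSO or doxycycline to cells that all carry an inducible IRF1 shRNA. Doxycycline was given to the shIRF1 samples only, so its effects and those of silencing IRF1 cannot be told apart. The shRNA vector was selected with puromycin, and the labels of the shIRF1 samples do not say which IRF1 hairpin was used. The duration of doxycycline treatment for these libraries is not given in the sources used here. Cells were cultured in triplicate, but nothing says how independently the samples were prepared, so the p-values measure only the spread between these samples.

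NRF2, encoded by NFE2L2, is the transcription factor that activates antioxidant and detoxification genes. In unstressed cells KEAP1 holds NRF2 and hands it to the CUL3 ubiquitin ligase for degradation, and oxidants or electrophiles modify cysteines of KEAP1 and let NRF2 accumulate. NRF2 then pairs with a small MAF protein and binds antioxidant response elements, where BACH1 competes with it, at HMOX1 among other genes. Since NRF2 is controlled largely through protein stability, its mRNA is not a measure of its activity. IRF1, the silenced gene, is a transcription factor of the interferon response.

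In shIRF1 samples the NRF2 redox genes did not all move one way. HMOX1, which encodes the heme-degrading enzyme heme oxygenase-1, rose 1.94-fold, and GCLM, the modifier subunit of glutamate-cysteine ligase, rose 1.28-fold. NQO1, a quinone reductase, fell to 0.546 of control, and TXN, thioredoxin itself, fell to 0.805 of control. NFE2L2, KEAP1, GCLC, TXNRD1 and SRXN1 did not pass the threshold of an adjusted p under 0.05 in the quasi-likelihood test of edgeR, Benjamini-Hochberg adjusted across the 18851 genes tested. The 4 called genes were 44.4% of the 9, where 50.5% of all genes tested were called, 24.1% higher and 26.4% lower. The share is near the background. None of the 9 passed the threshold with a change over 2-fold, as 3.43% of all genes tested did upward and 4.43% downward. The median log2 fold change was 0.05 over the 9 genes and −0.0024 over all genes tested. With upper quartile scaling or library size only, 4 of the 9 were higher and 2 lower, in place of 2 and 2. Of all 18851 genes tested, 5171 were higher and 4413 lower with upper quartile scaling, and 5267 and 4309 with library size only. The summed level of the 9 genes was between 1578 and 1629.5 CPM in control samples and between 1429 and 1512 CPM in shIRF1 samples. Abundant genes weigh most in this sum, so it does not describe a shared direction. NQO1 alone went from a mean of 436 CPM in control to 238 CPM in shIRF1 samples, and HMOX1 from 70.8 to 137 CPM. CPM gives each count relative to the TMM-scaled library total, and values are given in the order of replicates 1 to 3. In bulk RNA a lower value cannot tell fewer expressing cells from less RNA per cell.

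**Figure D1:**
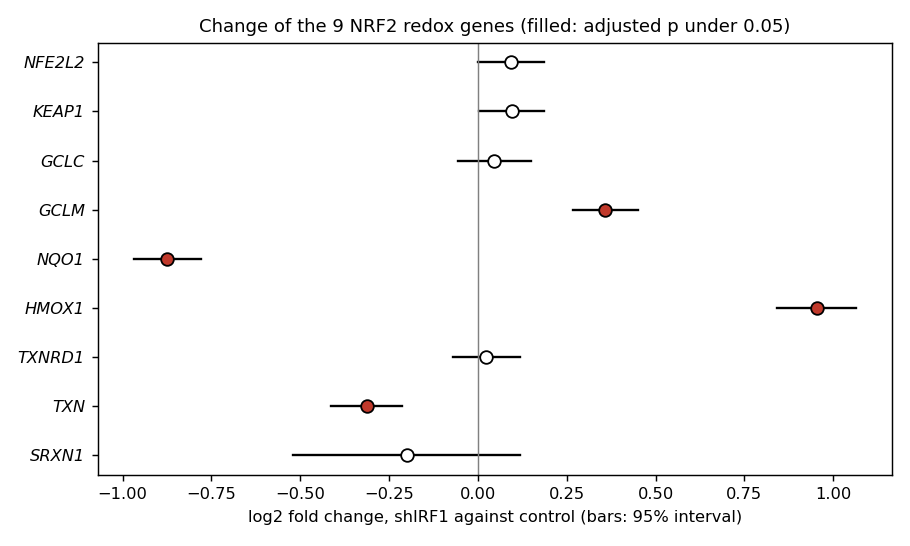
Log2 fold change of each NRF2 redox gene in shIRF1 against control samples, 3 each, on the x axis, with bars for the 95% confidence interval and filled points for an adjusted p under 0.05. HMOX1 (0.95) and GCLM (0.36) lie to the right, NQO1 (−0.87) and TXN (−0.31) to the left, and the other genes lie closer to 0.

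The promoter sequence of 3 of the 4 called genes is shown to place the antioxidant response element beside the changes. Each is the 250 bases before a RefSeq transcription start on GRCh38.p14, 5′ to 3′ on the strand of the gene, and capitals mark a match to the element core TGACNNNGC on either strand. HMOX1 had no entry in the promoter table.
GCLM, chr1:93909431-93909680, minus strand: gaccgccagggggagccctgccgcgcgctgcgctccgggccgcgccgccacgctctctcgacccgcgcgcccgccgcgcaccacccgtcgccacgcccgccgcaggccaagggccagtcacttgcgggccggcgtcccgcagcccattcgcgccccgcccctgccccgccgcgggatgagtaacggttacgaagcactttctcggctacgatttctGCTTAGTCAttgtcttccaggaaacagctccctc
NQO1, chr16:69726561-69726810, minus strand: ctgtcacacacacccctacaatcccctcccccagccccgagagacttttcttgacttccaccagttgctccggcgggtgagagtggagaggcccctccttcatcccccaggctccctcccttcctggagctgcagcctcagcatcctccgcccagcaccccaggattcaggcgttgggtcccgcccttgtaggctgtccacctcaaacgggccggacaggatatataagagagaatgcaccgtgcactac
TXN, chr9:110256508-110256757, minus strand: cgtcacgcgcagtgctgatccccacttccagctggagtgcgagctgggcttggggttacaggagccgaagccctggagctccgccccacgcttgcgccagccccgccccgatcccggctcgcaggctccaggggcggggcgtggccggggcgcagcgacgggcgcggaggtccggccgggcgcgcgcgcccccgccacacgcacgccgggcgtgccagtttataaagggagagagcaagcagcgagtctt

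The match in GCLM, which rose, begins 34 bases before the start and lies on the opposite strand. NQO1 and TXN, which fell, held no match to these letters in this window. Sequence further from the start was not searched, so an element outside the window would be missed. Among the 8 genes with an entry, which have 11 windows in all, GCLM, TXNRD1 and KEAP1 held the core. TXNRD1 and KEAP1 did not pass the threshold. Whether the element has a part in the changes was not tested. Of all 35116 windows in the table, 10.9% held it. None of the matches overlapped the AP-1 site TGANTCA. The core of the interferon-stimulated response element, GAAA and after 2 bases GAAA again, on either strand, was in 3.02% of all windows and, among these genes, in a window of TXNRD1 alone, 192 bases before the start.

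IRF1 was at 45.3, 48.1 and 51.5 CPM in control samples, against 13.8, 14.9 and 14.6 CPM in shIRF1 samples, with no overlap. Total counts ranged from 55143808, in shIRF1 replicate 2, to 160436234, so 3 counts corresponded to 0.0182 to 0.0540 CPM, a limit that covers counting error only. Both mates of a read pair appear to have been counted, so 3 counts may stand for fewer than 3 fragments and the limit may be higher. VIM and FN1, mesenchymal genes that BT-549 cells are known for, were at 593 to 945 CPM and 574 to 775 CPM. Of the 5 mesenchymal markers 4 fell, where 26.4% of all genes tested were called lower and 24.1% higher. The 5 markers summed to 1983 to 2097 CPM in control and 1548 to 1645 CPM in shIRF1 samples. ESR1 was at most 0.144 CPM and PGR at most 0.325 CPM. ERBB2 fell from 47.7 to 54.8 CPM in control samples to 35.0 to 38.1 CPM in shIRF1 samples (log2 fold change −0.48 ± 0.06, SE). Of the 5 luminal epithelial markers, KRT8, KRT18 and GATA3 fell, while EPCAM (log2 fold change 0.68) and CDH1 (−0.006) did not pass the threshold. GATA3 was at 0.0159, 0 and 0.0729 CPM in shIRF1 samples, below the limit of 3 counts in replicates 1 and 2. The summed level of the luminal list was 8.54 to 9.07 CPM in control and 3.91 to 4.53 CPM in shIRF1 samples. Of the 4 leukocyte markers, CD14 rose, the sum was 1.5 to 1.78 CPM against 2.45 to 3.19 CPM, and CD3E was at 0 in 5 of the 6 libraries. Endothelial markers summed to at most 0.253 CPM and adipocyte markers to at most 0.364 CPM, with PLIN1 called higher and ADIPOQ at 0 in every library. The part of these markers in the changes of NRF2 redox genes was not tested.

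NFE2L2 and KEAP1, the factor and its adaptor, were close to control levels. NFE2L2 (chr2:177227595-177392697, minus strand, GENCODE release 29) was at 96.0, 92.7 and 90.7 CPM in control samples, against 95.5, 104 and 98.8 CPM in shIRF1 samples. The lowest shIRF1 sample lay below the highest control sample, so the groups overlapped. The log2 fold change of NFE2L2 was 0.09 ± 0.04 (SE), and it had a 95% confidence interval from −0.0007 to 0.19 and an adjusted p of 0.0933 by the quasi-likelihood test of edgeR. KEAP1 (chr19:10486120-10503741, minus strand) was at 98.7, 102 and 108 CPM in control samples, against 110.5, 108 and 110.6 CPM in shIRF1 samples. The KEAP1 values did not overlap, as was the case for 56.8% of genes tested, but control replicate 3 lay next to shIRF1 replicate 2. Its log2 fold change was 0.09 ± 0.04, with an interval from 0.0027 to 0.19 and an adjusted p of 0.0818 by edgeR. Both genes were called higher under upper quartile scaling, library size only and a 1 CPM filter in 3 samples, at log2 fold changes of at most 0.14 for NFE2L2 and 0.15 for KEAP1. NFE2L2 also passed in libraries thinned to the smallest total (0.11), and KEAP1 without control replicate 3 (0.13).

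The ratio of NFE2L2 to KEAP1 counts within a library does not depend on how libraries are scaled. It was 0.972, 0.909 and 0.842 in control and 0.865, 0.959 and 0.893 in shIRF1 replicates 1 to 3, and the ranges overlapped. The difference of the mean log2 ratio was −0.0021 (exact two-sided permutation test, p = 1, n = 3 each), in a design whose smallest possible p is 0.1. The sign of this difference changed in 4 of the 6 comparisons that left out 1 library, with a range from −0.055 to 0.049, and in thinned libraries (0.0015).

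Glutathione synthesis was represented by GCLC and GCLM, the catalytic and modifier subunits of the rate-limiting enzyme. Only the modifier passed the test. GCLM (chr1:93885205-93909456, minus strand) was at 119, 115 and 111 CPM in control samples, against 144, 152 and 145 CPM in shIRF1 samples. All shIRF1 samples lay above all control samples. The mean rose from 115 ± 4.07 to 147 ± 4.27 CPM (SD, n = 3 each), a log2 fold change of 0.36 ± 0.04 (SE) and an adjusted p of 2.01e-06 by the quasi-likelihood test of edgeR. GCLC (chr6:53497341-53616970, minus strand) was at 40.6, 39.2 and 38.0 CPM in control samples, against 40.5, 41.5 and 39.8 CPM in shIRF1 samples. These values overlapped, and the log2 fold change was 0.05 ± 0.05, with an interval from −0.06 to 0.15 and an adjusted p of 0.462 by edgeR. The ratio of GCLC to GCLM counts was 0.342, 0.342 and 0.343 in control and 0.281, 0.273 and 0.274 in shIRF1 replicates. The control libraries were nearly identical in this ratio, and every shIRF1 library lay below them. The mean log2 ratio differed by −0.31, or 0.806-fold, at the smallest p the exact two-sided permutation test allows (p = 0.1, adjusted p = 0.15 over the 3 ratios computed).

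**Figure D2:**
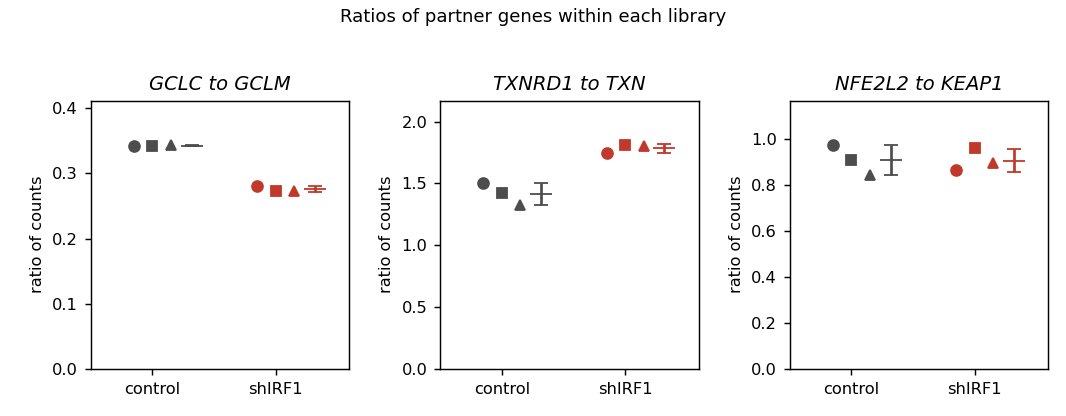
Ratio of the counts of partner genes (y axis, starting at 0) in each control and shIRF1 library, with circles, squares and triangles for replicates 1, 2 and 3 and dashes with bars for mean ± SD, n = 3. GCLC to GCLM is lower and TXNRD1 to TXN higher in every shIRF1 library, whereas NFE2L2 to KEAP1 overlaps between the groups.

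NQO1 and HMOX1 changed most among these genes, in opposite directions. NQO1 reduces quinones with electrons from NADPH or NADH and is widely used as a readout of NRF2. NQO1 (chr16:69706996-69726951, minus strand) was at 435, 424 and 448 CPM in control samples, against 235, 249 and 229 CPM in shIRF1 samples. The groups were far apart compared with the spread inside each. The mean fell from 436 ± 12 to 238 ± 10.4 CPM (SD, n = 3 each), a log2 fold change of −0.87 ± 0.04 (SE) and an adjusted p of 4.54e-11 by the quasi-likelihood test of edgeR. In absolute log2 fold change NQO1 exceeded 88.5% of genes tested. HMOX1 breaks heme into biliverdin, iron and carbon monoxide. HMOX1 (chr22:35380361-35394214, plus strand) was at 67.0, 68.3 and 77.1 CPM in control samples, against 139, 131 and 141 CPM in shIRF1 samples. All shIRF1 samples lay above all control samples, of which replicate 3 was the highest. The mean rose from 70.8 ± 5.49 to 137 ± 5.0 CPM, a log2 fold change of 0.95 ± 0.05 and an adjusted p of 1.17e-10 by edgeR. HMOX1 exceeded 90.3% of genes tested in absolute log2 fold change and stayed just under 2-fold. It passed 2-fold with library size only (1.01) and without control replicate 3 (1.02), and ranged from 0.91 to 1.02 over its 15 alternatives.

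**Figure D3:**
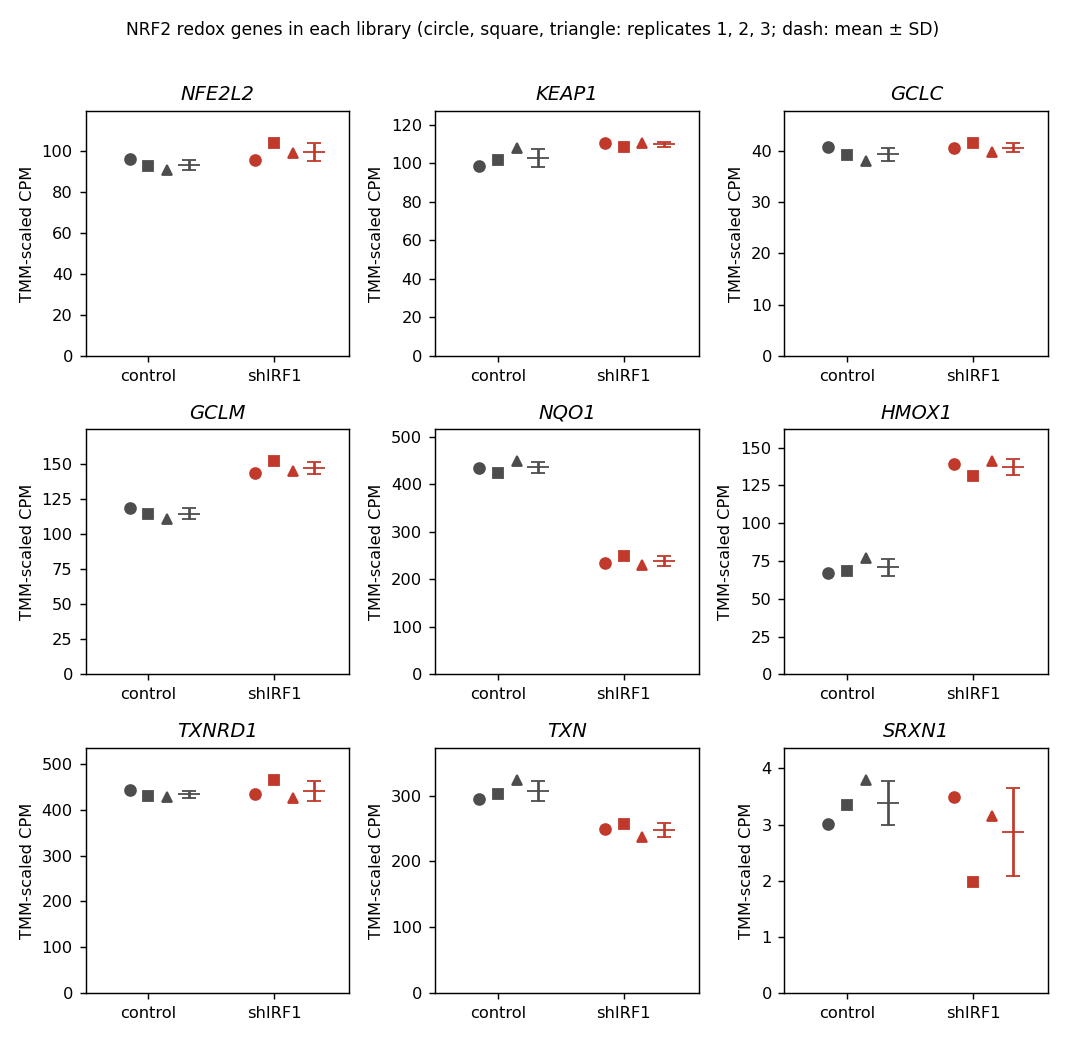
TMM-scaled CPM of each of the 9 NRF2 redox genes (y axis, starting at 0) in each control and shIRF1 library, with circles, squares and triangles for replicates 1, 2 and 3 and dashes with bars for mean ± SD, n = 3. The groups are separate for KEAP1, GCLM, NQO1, HMOX1 and TXN, as they are for 56.8% of all genes tested. SRXN1 lies below 4 CPM in all libraries.

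In the thioredoxin system, thioredoxin reduces disulfides of target proteins, thioredoxin reductase 1 restores it with NADPH, and sulfiredoxin rescues overoxidized peroxiredoxins. TXN (chr9:110243811-110256640, minus strand) was at 295, 303 and 324 CPM in control samples, against 249, 257 and 236 CPM in shIRF1 samples. All shIRF1 samples lay below all control samples. The mean fell from 307 ± 15.1 to 248 ± 10.6 CPM (SD, n = 3 each), a log2 fold change of −0.31 ± 0.05 (SE) and an adjusted p of 2.52e-05 by the quasi-likelihood test of edgeR. TXNRD1 (chr12:104215779-104350305, plus strand) was at 443, 430.3 and 429 CPM in control samples, against 434, 466 and 425 CPM in shIRF1 samples. The groups overlapped, with a log2 fold change of 0.02 ± 0.04, an interval from −0.07 to 0.12 and an adjusted p of 0.694 by edgeR. The ratio of TXNRD1 to TXN counts was 1.5, 1.42 and 1.32 in control and 1.74, 1.81 and 1.8 in shIRF1 replicates. The mRNA of the reductase was thus higher relative to that of its substrate in every shIRF1 library than in any control library. The mean log2 ratio differed by 0.33, or 1.26-fold (exact two-sided permutation test, p = 0.1, adjusted p = 0.15 over the 3 ratios).

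SRXN1 (chr20:646615-653370, minus strand) was the least abundant of these genes. It was at 3.0, 3.35 and 3.80 CPM in control samples, against 3.48, 1.98 and 3.15 CPM in shIRF1 samples, and the groups overlapped. The log2 fold change of SRXN1 was −0.20 ± 0.15 (SE), in an interval from −0.52 to 0.12 and an adjusted p of 0.296 by the quasi-likelihood test of edgeR. The estimate was −0.03 without shIRF1 replicate 2, the library at 1.98 CPM and the least deeply sequenced. In GENCODE release 29, 2292 of the 2698 exonic bases of SRXN1, or 85.0%, are also exonic in another protein-coding gene on the same strand, AL121758.1, which is not among the symbols of the count table. Whether reads shared by the pair were counted, split or dropped is not stated, so the level of SRXN1 is uncertain. Exonic bases shared with other annotated genes made up 17.7% of NQO1, on the opposite strand, and 17.6% of NFE2L2 on the same strand.

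Levels were compared between genes per kilobase of annotated exon, which assumes that all annotated exons are used. In control samples the order was TXN at 269 ± 13.2 CPM per kb, NQO1 at 134 ± 3.69, TXNRD1 at 64.7 ± 1.16, HMOX1 at 29.4 ± 2.28, KEAP1 at 27.3 ± 1.23, GCLM at 21.2 ± 0.751, NFE2L2 at 15.6 ± 0.441, GCLC at 4.54 ± 0.154 and SRXN1 at 1.25 ± 0.147 CPM per kb (SD, n = 3). HMOX1 and KEAP1 were the only neighbors whose ranges overlapped in control samples. In shIRF1 samples the order was the same and no neighbors overlapped. HMOX1, at 57.0 ± 2.08 CPM per kb, was then clear of KEAP1, at 29.2 ± 0.341, and NQO1 had come down to 73.1 ± 3.19, next to TXNRD1 at 65.8 ± 3.17.

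Among the 9269 genes that averaged 10 CPM or more, the 3 whose log2 CPM followed NFE2L2 most closely over the 6 samples were ZNF407, CWC27 and ALDH1L2. Their root mean square differences from NFE2L2, each gene centered on its mean, were 0.0083, 0.014 and 0.014 on the log2 scale. ALDH1L2, a mitochondrial folate enzyme, was at 134, 129.8 and 128 CPM in control samples, against 134, 144 and 141 CPM in shIRF1 samples.

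Proteins that degrade NRF2, partner with it, compete with it or bind KEAP1 were examined next, as an NRF2 control list of 15 genes that were all tested. In this list 3 genes rose, 6 fell and 6 did not pass the threshold, or 60% called where 50.5% of all genes tested were, 24.1% higher and 26.4% lower. The median log2 fold change was −0.09 against −0.0024 over all genes tested. The small MAF genes, whose products are the DNA-binding partners of NRF2 and of BACH1, fell together. MAFF was at 33.1, 33.5 and 32.3 CPM in control samples, against 26.7, 21.9 and 25.8 CPM in shIRF1 samples (log2 fold change −0.40 ± 0.07, SE). MAFG was at 37.2, 34.8 and 35.4 CPM against 28.4, 26.6 and 28.0 CPM (−0.37 ± 0.05). MAFK was at 31.9, 33.2 and 35.5 CPM against 25.6, 23.3 and 27.5 CPM (−0.39 ± 0.07). BACH1, the repressor that shares these partners, was at 71.1, 68.7 and 67.1 CPM against 54.1, 62.4 and 55.0 CPM (−0.27 ± 0.05). In none of these 4 genes did the groups overlap, as was the case for 56.8% of all genes tested, 29.5% with lower values in shIRF1 samples. MAFK and BACH1 are outside the naming rule, and their values had been seen when they were chosen. Adjusted p-values of the 4 genes were at most 2.80e-04 in edgeR's quasi-likelihood test.

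SQSTM1, the autophagy receptor p62 that binds KEAP1 and is itself a target of NRF2, fell from 614 ± 24.2 to 493 ± 11.7 CPM (SD, n = 3 each; log2 fold change −0.32 ± 0.04, SE). NFE2L3, a relative of NFE2L2, was at 20.5, 21.1 and 19.4 CPM in control samples, against 12.4, 14.5 and 12.9 CPM in shIRF1 samples (−0.62 ± 0.07). NFE2L1, another relative that activates proteasome genes, changed the other way, from 186, 187 and 195 CPM to 242, 236 and 251 CPM (0.36 ± 0.04). BTRC, the substrate receptor of the KEAP1-independent route of NRF2 degradation, rose from 44.4 ± 1.62 to 56.6 ± 2.67 CPM (0.35 ± 0.05). CUL3 rose by less, at 84.1, 79.8 and 78.1 CPM in control and 88.7, 94.5 and 85.9 CPM in shIRF1 samples (0.15 ± 0.05, adjusted p 0.0114 in edgeR's quasi-likelihood test). RBX1, DPP3, CREBBP, PGAM5, GSK3B and CAND1 did not pass the threshold.

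**Figure D4:**
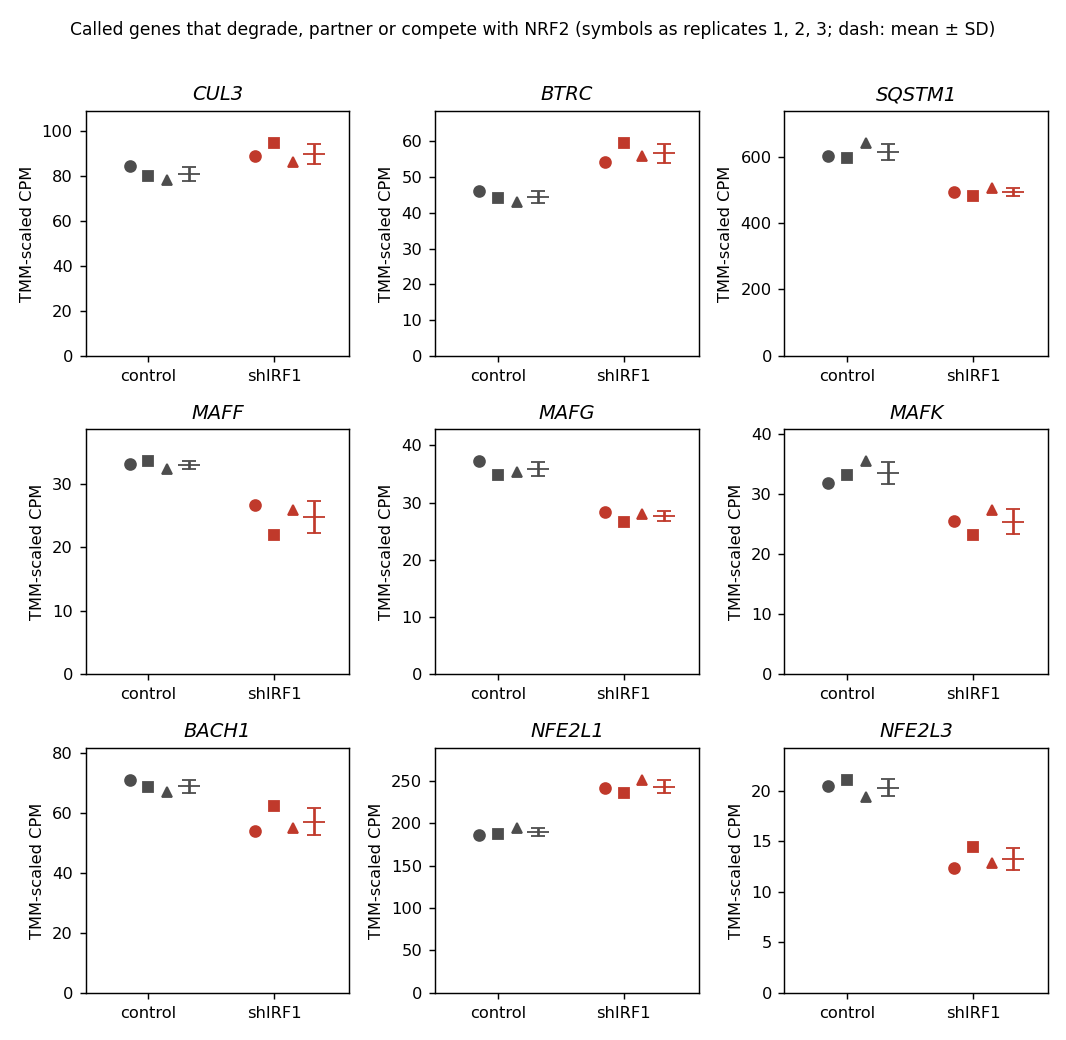
TMM-scaled CPM (y axis, starting at 0) of the 9 called genes of the NRF2 control list in each control and shIRF1 library. Their products degrade NRF2, partner or compete with it or, for SQSTM1, bind KEAP1. Circles, squares and triangles stand for replicates 1, 2 and 3 and dashes with bars for mean ± SD, n = 3. MAFF, MAFG, MAFK, BACH1, SQSTM1 and NFE2L3 are lower and NFE2L1, BTRC and CUL3 higher in every shIRF1 library. The groups did not overlap in 56.8% of all genes tested.

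Other textbook NRF2 targets, 35 genes of which 33 were tested, divided as well. In this list 7 rose, 17 fell and 9 did not pass, with a median log2 fold change of −0.24. The called share was 72.7%, beside 50.5% of all genes tested (24.1% higher, 26.4% lower). That background includes scarce genes. Of the 13204 genes with at least 1 CPM in at least 3 samples, 4296 were called higher and 4273 lower. UGT1A6 and CES1 did not pass the filter on low counts. The targets with the smallest adjusted p-values among those that fell were IDH1, UGDH, CBR3 and TALDO1. IDH1, which makes cytosolic NADPH, was at 102, 99.1 and 103 CPM in control samples, against 46.3, 49.3 and 47.4 CPM in shIRF1 samples (log2 fold change −1.09 ± 0.04, SE). CBR3, a carbonyl reductase, was at 7.30, 6.66 and 7.50 CPM against 2.09, 2.52 and 2.34 CPM (−1.64 ± 0.10). UGDH, which makes UDP-glucuronic acid for conjugation, fell from 224 ± 11 to 126 ± 5.19 CPM (SD, n = 3 each; −0.83 ± 0.05). TALDO1, of the pentose phosphate pathway, fell from 76.5 ± 4.55 to 47.0 ± 1.3 CPM (−0.70 ± 0.05).

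Those that rose were led by TRIM16L, at 38.9, 40.4 and 41.4 CPM in control samples, against 84.5, 85.0 and 78.9 CPM in shIRF1 samples (log2 fold change 1.04 ± 0.05, SE). TRIM16L has a close paralog, TRIM16, and its counts are uncertain for that reason. SLC7A11, the cystine importer that feeds glutathione synthesis, was at 58.9, 53.3 and 56.4 CPM against 86.3, 83.7 and 88.7 CPM (0.62 ± 0.05). PIR, an iron-binding nuclear protein, was at 10.6, 11.5 and 12.3 CPM against 17.0, 17.3 and 16.7 CPM (0.57 ± 0.07). ABCC4, an exporter of organic anions, rose from 94.6 ± 4.96 to 121 ± 5.11 CPM (SD, n = 3 each; 0.35 ± 0.05). SLC7A11 and GCLM mRNA both rose, while that of GSS, the enzyme that completes glutathione, fell from 85.5 to 77.1 CPM (−0.15 ± 0.05), a gene named here after its value was seen.

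Of 26 glutathione system genes, 25 were tested, 4 rose, 10 fell and 11 did not pass, with a median log2 fold change of −0.08. The called share of 56% was near the 50.5% of all genes tested (24.1% higher, 26.4% lower), so the values below describe single genes. GGT1 was not among the gene symbols counted. GSR, which regenerates reduced glutathione, was at 138, 141 and 144 CPM in control samples, against 160.0, 168 and 159 CPM in shIRF1 samples (0.20 ± 0.04, SE). GPX4, which reduces lipid peroxides, was at 158, 168 and 185 CPM against 208, 189 and 199.8 CPM (0.23 ± 0.05). GSTZ1 (0.64 ± 0.09) and GGT7 (0.22 ± 0.07) were the other genes that rose, and GGT7 lost its call without control replicate 1 and without shIRF1 replicate 3. GSTP1, an abundant glutathione transferase, fell from 215 ± 13.9 to 166 ± 7.14 CPM (SD, n = 3 each; −0.37 ± 0.05). GLRX (−0.61 ± 0.10), GPX7 (−0.53 ± 0.08) and GSTK1 (−0.38 ± 0.06) also fell.

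In the thioredoxin system list, 21 genes beside TXN, TXNRD1 and SRXN1, 7 rose, 8 fell and 6 did not pass, with a median log2 fold change of 0.01. The called share was 71.4%, beside 50.5% of all genes tested (24.1% higher, 26.4% lower). Of the 13204 genes with at least 1 CPM in at least 3 samples, 4296 were called higher and 4273 lower. With library size only 9 were called higher and 5 lower, where 5267 and 4309 of all genes tested were, and with upper quartile scaling 9 and 6, where 5171 and 4413 were. TXNIP, the inhibitor that binds reduced thioredoxin, had the largest decrease of any gene in the 5 lists, from 163, 161 and 143 CPM in control to 44.4, 45.9 and 43.2 CPM in shIRF1 samples (−1.81 ± 0.05, SE). It fell to 0.286 of control, while TXN fell to 0.805. MSRA (−0.69 ± 0.07), TXNL1 (−0.39 ± 0.04) and PRDX2 (−0.31 ± 0.05) fell as well. TXN2, the mitochondrial thioredoxin, rose from 74.7 to 95.8 CPM (0.36 ± 0.05), opposite to the cytosolic TXN. TXNDC12 (0.51 ± 0.07), MSRB3 (0.43 ± 0.06) and PRDX4, the peroxiredoxin of the endoplasmic reticulum (0.28 ± 0.04), rose.

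Among 23 genes of superoxide and peroxide handling, 13 were tested, 2 rose, 8 fell and 3 did not pass, with a median log2 fold change of −0.56. The called share was 76.9%, beside 50.5% of all genes tested (24.1% higher, 26.4% lower). Of the 13204 genes with at least 1 CPM in at least 3 samples, 4296 were called higher and 4273 lower. The other 10, CYBB, NOX4 and DUOX2 among them, did not pass the filter on low counts. SOD2, the mitochondrial superoxide dismutase, was at 635, 649 and 682 CPM in control samples, against 367, 371 and 362 CPM in shIRF1 samples (−0.84 ± 0.04, SE). CAT, which breaks down hydrogen peroxide, was at 32.8, 33.1 and 36.9 CPM against 17.0, 17.7 and 18.6 CPM (−0.94 ± 0.06). CYBA, the membrane partner of NADPH oxidases, fell from 27.4 ± 3.17 to 16.0 ± 1.3 CPM (SD, n = 3 each; −0.77 ± 0.08), and RAC1, a GTPase with many roles, from 667 ± 8.55 to 529 ± 2.63 CPM (−0.34 ± 0.04). The oxidase DUOX1 rose from 0.919 to 1.47 CPM (0.70 ± 0.16). NOX5, named after its value was seen, was called higher (2.24 ± 0.64) at a mean of 0.131 CPM and lost the call without shIRF1 replicate 1.

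**Figure D5:**
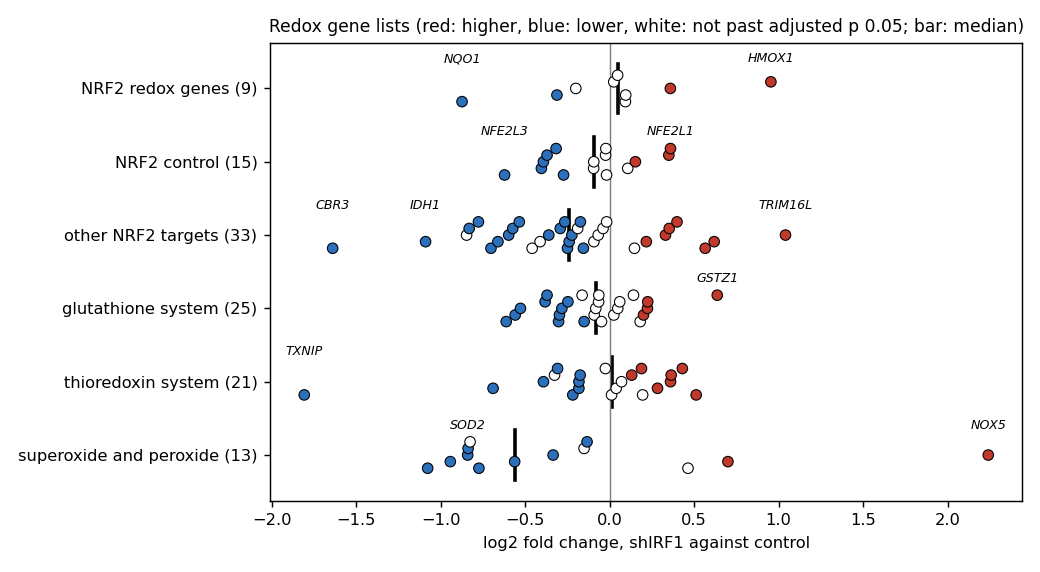
Log2 fold change in shIRF1 against control samples (x axis) of every tested gene in the NRF2 redox genes and the 5 further lists, with red points for genes called higher, blue for genes called lower, white for genes past no threshold and black bars for medians. Each list holds genes on both sides of 0. Among the most distant are NOX5 at 2.24, at a mean of only 0.131 CPM, TXNIP at −1.81, CBR3 at −1.64 and TRIM16L at 1.04.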

How the data were processed

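RNA was sequenced from 6 samples of BT-549 cells, 3 control and 3 shIRF1, with TruSeq Stranded mRNA libraries per the labels. The deposited table holds unnormalized read counts by gene symbol. The submitters' processing notes name CASAVA 1.8.2, STAR 2.7.9a, featureCounts, DESeq2 1.24.0 and GRCh38.p7. The annotation and the strand setting are not given in the sources used here. Among values from 2 to 11 counts, between 72.1% and 75.2% per sample were even, so mates appear to have been counted separately, and halved counts were tried.

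The deposited counts were tested with edgeR 4.0.16 (R 4.3.3): quasi-likelihood test, group as the only factor, TMM scaling, a filterByExpr minimum of 10 counts, and p-values adjusted by Benjamini-Hochberg across the 18851 genes kept. The script was tested on simulated data. The SE of a log2 fold change equals its absolute value over the root of F. Alternatives were DESeq2 1.42.0, other scalings and filters, each library left out, the replicate number as a block, halved counts and thinned libraries. Intervals include the spread between replicates. Positions and exonic lengths are from GENCODE release 29 (GRCh38), and promoter sequences from RefSeq on GRCh38.p14.

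The 9 genes and the 5 further lists were chosen with earlier results of these data known. The naming rule covered the 9 genes, IRF1, up to 4 genes per direction and list with the smallest adjusted p among called genes averaging 1 CPM or more, and the 3 genes closest to NFE2L2. The main test did not treat replicate numbers as pairs, and nothing says whether same-numbered samples were prepared together.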

Additional observations from a re-analysis of the deposited data

How the results depend on the processing

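The calls of GCLM, NQO1, HMOX1 and TXN held in direction and passed the threshold under all 15 alternatives, at log2 fold changes from 0.34 to 0.41, −0.90 to −0.82, 0.91 to 1.02 and −0.34 to −0.26. NFE2L2 was called higher under upper quartile scaling (0.14), library size only (0.14), at least 1 CPM in at least 3 samples (0.12) and thinned libraries (0.11), and ranged from 0.07 to 0.12 when 1 library was left out. KEAP1 passed under upper quartile scaling (0.14), library size only (0.15) and at least 1 CPM in at least 3 samples (0.12), and without control replicate 3 (0.13), in a range from 0.064 to 0.13. The median of all genes shifted to 0.04 with upper quartile scaling and to 0.05 with library size only, and the cause of the other changes was not tested. Under each of the settings upper quartile scaling, library size only and at least 1 CPM in at least 3 samples, 4 of the NRF2 redox genes were higher. Over all genes tested, 5171 of 18851, 5267 of 18851 and 4296 of 13204 were higher under these settings, in that order. TXNRD1 changed sign without shIRF1 replicate 2 (−0.011), in a range from −0.011 to 0.049. The log2 ratio of NFE2L2 to KEAP1 ranged from −0.055 to 0.049 when 1 library was left out, changing sign without control replicate 1 (0.049), control replicate 2 (0.00053), shIRF1 replicate 1 (0.031) and shIRF1 replicate 3 (0.0073), and was 0.0015 in thinned libraries.

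In the thioredoxin system list 5 genes fell with library size only, and 5 to 7 when 1 library was left out, 5 without control replicate 3. In the superoxide and peroxide list, at least 1 CPM in at least 3 samples left 6 called genes, 1 higher and 5 lower, since fewer genes were tested. Halved counts and thinned libraries gave 1 higher, and leaving out 1 library gave 1 to 2, with 1 without shIRF1 replicate 1. With the replicate number as a block, 2 of the 9 genes were higher and 2 lower. Of all 18851 genes tested, 4490 were higher and 4972 lower. NQO1 was at −0.87 and HMOX1 at 0.96, and no call of these 9 genes changed. The deviations of same-numbered samples correlated at 0.0203, 0.0196 and −0.0182 for replicates 1 to 3. SRXN1, at a mean of 3.13 CPM, had the widest interval of the 9.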
